A study of Drosophila melanogaster with 4 samples.

Results

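The regions described here are the clusters of JHDM1 enrichment that lie outside the large chromosome arms of Drosophila melanogaster: those on the short chromosome 4, on the 6 heterochromatic scaffolds (XHet, YHet, 2LHet, 2RHet, 3LHet and 3RHet, called Het scaffolds here) and on U, which collects sequence with no place on a chromosome. They were chosen by a rule that uses sequence name alone and no measured value, though earlier results of these data were known when it was set. Of the 11598 clusters in the list that covers both replicates together, 220 met this rule, with 34 on chromosome 4, 77 on the Het scaffolds and 109 on U. ChIP replicate 1 held 62 such clusters of 4768, and ChIP replicate 2 held 53 of 4805.

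All samples came from wild-type embryos of the Oregon-R strain at 14 to 16 h of development, raised in population cages and collected in bulk. JHDM1 was precipitated with antibody Q2634 in 2 ChIP samples, set beside 2 inputs, and each ChIP replicate has its own list of enriched clusters. By the labels, the inputs were used crosswise: the first served the list of ChIP replicate 2, and the second that of ChIP replicate 1. Nothing in the labels ties the replicates to separate embryo collections, so their spread may be technical. Each entry has coordinates and a score but no read count, so the depth behind a cluster is unknown.

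JHDM1, also called KDM2, removes methyl groups from lysine 36 of histone H3 through its JmjC domain, and its CXXC zinc finger is of a type that binds CpG-containing DNA in mammals. In flies it also belongs to a Polycomb-group complex with dRING that modifies histone H2A. Heterochromatin, the compact and repeat-rich part of the genome, carries methylated lysine 9 on histone H3 and the protein HP1. Chromosome 4 is largely heterochromatic but holds many transcribed genes. The Het scaffolds are pieces of pericentromeric and Y-linked sequence that were assigned to a chromosome arm, and U joins unplaced scaffolds end to end, so distances across their joins are distances in the assembly and not along a chromosome.

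JHDM1 clusters were scarce on all of these sequences, and the scarcity had an order: chromosome 4 was the least depleted, U came next and the Het scaffolds held fewest per length. Chromosome 4 had 9.62 clusters per Mb in replicate 1 and 6.66 in replicate 2, or 8.14 ± 2.09 (SD, n = 2). U had 3.78 and 3.28 clusters per Mb, or 3.53 ± 0.352. The Het scaffolds as a pool had 11 clusters in each replicate, or 1.19 per Mb. The 5 large arms (X, 2L, 2R, 3L and 3R) had 39.5 and 39.9 clusters per Mb, so none of the 3 classes came near the arms in either replicate.

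Set against the large arms, the density was 0.205 ± 0.0541 times theirs on chromosome 4, 0.0890 ± 0.00947 times on U and 0.0298 ± 0.000205 times on the Het scaffolds (SD, n = 2). The SD of the Het scaffolds is small because both replicates held 11 clusters there, and it does not measure the uncertainty of so low a count. Only 5 of the 11 overlapped a cluster of the other replicate. In a two-sided exact binomial test of cluster counts against assembled length, adjusted by the Benjamini-Hochberg method over 30 tests of sequences in both replicates, chromosome 4 gave adjusted p-values of 1.5e-10 and 2.7e-13. On U the same exact test gave 1.4e-112 and 4.2e-119, and on the pooled Het scaffolds 9.2e-133 and 3.8e-134. Because neighbouring clusters depend on each other, the test overstates the evidence and its p-values come out too small. Between the classes, which were not tested against each other, chromosome 4 was 2.54 and 2.03 times as dense as U in the replicates, and U was 3.19 and 2.77 times as dense as the Het scaffolds. In the combined list, chromosome 4 had 25.2 clusters per Mb, U 10.8 and the Het scaffolds 8.30, against 95.6 on the large arms, so that U was there 1.31 times as dense as the Het scaffolds. The ratio of the Het scaffolds to the arms was 0.0868 in that list. When each replicate list was restricted to its higher-scoring clusters, those above its median, the ratio was 0.0191 on the Het scaffolds and 0.172 on U.

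**Figure D1:**
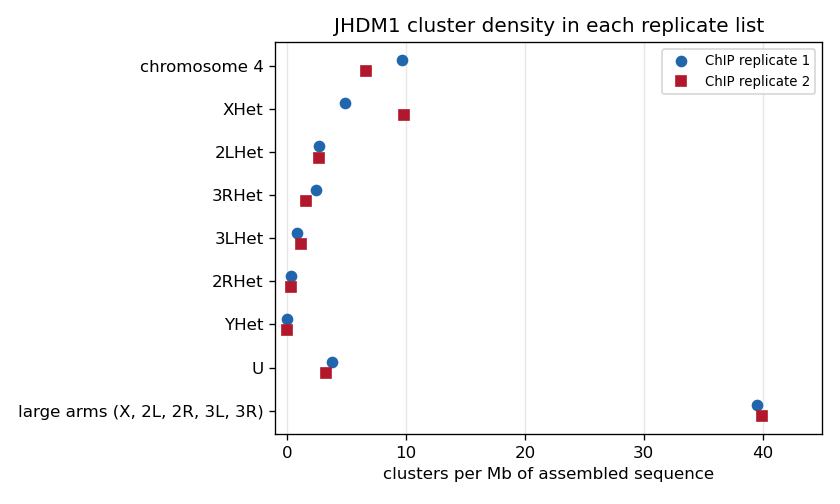
Clusters per Mb of assembled sequence (horizontal axis) on chromosome 4, each Het scaffold, U and the large arms, with a circle for ChIP replicate 1 and a square for ChIP replicate 2. All 8 sequences lie below 10 clusters per Mb in both replicates, while the large arms lie at 39.5 and 39.9.

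The 6 Het scaffolds were unequal among themselves. XHet, of 0.204 Mb, had 1 and 2 clusters, or 7.35 ± 3.46 per Mb, and was the only one near chromosome 4. On 2LHet there was 1 cluster in each replicate, or 2.71 per Mb. On 3RHet there were 6 and 4 clusters, on 3LHet 2 and 3, and on 2RHet, the longest of them at 3.29 Mb, 1 in each replicate. YHet, of 0.347 Mb, had none in either replicate, and a count of 0 allows up to 8.64 clusters per Mb at a floor of 3 clusters, which is not below the density of chromosome 4. Each of the 6 passed the exact binomial test against the large arms in both replicates, with XHet the closest to the threshold at adjusted p-values up to 0.025. With at most 6 clusters on a scaffold, the order among them is not firm.

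In covered sequence, the clusters took up 1.65% ± 0.422 of chromosome 4, 1.39% ± 0.0796 of U and 0.217% ± 0.00243 of the Het scaffolds, against 8.23% ± 0.0415 of the large arms (SD, n = 2). In the replicate lists, chromosome 4 and U were therefore much closer in covered bases than in numbers of clusters. A large part of the cover on U came from U:1987414-2015095 and U:3467797-3487783, with 27682 and 19987 bases in replicate 1. In the combined list the clusters covered 4.17% of chromosome 4 and 2.43% of U. Here too, the small SD of the Het scaffolds does not measure the uncertainty of a count of 11 clusters. Densities are per assembled length, and the share of each sequence on which reads can be placed is not given in the sources used here.

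The clusters of chromosome 4 had scores near those of the large arms. Replicate 1 gave them a median score of 0.60 and replicate 2 one of 0.66, or 0.63 ± 0.045, against 0.60 and 0.63, or 0.61 ± 0.020, on the large arms (SD, n = 2). Scores are those of the authors, on a log2 scale as far as the values show, and they are compared here within a list. Their median width was 2097 and 2001 bases, or 2049 ± 67.9, against 1969 and 1939 bases, or 1954 ± 21.2, on the large arms. The difference in median score from the arms was 0.014 ± 0.025 and thus smaller than its spread, while the difference in width was 95 ± 46.7 bases. With 13 and 9 clusters behind the medians, these SDs do not measure the uncertainty of either median. In the combined list the median score was 0.39 on chromosome 4, against 0.43 on the large arms.

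Chromosome 4 had 8 sites that both replicates and the combined list shared. The highest combined score was at 4:1009183-1011330, with 0.76, where replicate 1 scored 0.90 and replicate 2 scored 0.59 (mean 0.75 ± 0.22, SD, n = 2). The site at 4:576970-579900 had 0.73 in the combined list beside 0.78 and 0.85 in the replicates. At 4:526898-529681 the combined score was 0.70 and the replicates scored 0.84 and 0.70. These 3 sites ranked 812, 876 and 987 of the 11598 clusters of the combined list, so no site of chromosome 4 was among the strongest in the genome.

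The other 5 shared sites of chromosome 4 scored lower. At 4:1327404-1329361 the combined score was 0.64, with 0.80 and 0.85 in the replicates, and this was the highest mean of the replicates on the chromosome (0.83 ± 0.032). At 4:826834-829526 it was 0.63, with 0.68 and 0.76. At 4:521522-523983 it was 0.56, with 0.63 and 0.66. The remaining sites, 4:679347-681927 and 4:853973-855857, had combined scores of 0.46 and 0.32, and their replicate scores were 0.54 and 0.51 at the first and 0.37 and 0.39 at the second. Apart from 4:1009183-1011330 and 4:526898-529681, the replicates differed by less than 0.1 at each of the 8 sites, and 5 of the 8 scored higher in replicate 2.

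Replicate 1 had 5 clusters on chromosome 4 that replicate 2 did not have, and replicate 2 had 1 of its own. Those of replicate 1 were at 4:509928-512024 with a score of 0.60, 4:724179-725800 with 0.47, 4:1000181-1001540 with 0.45, 4:915475-917349 with 0.41 and 4:655458-656858 with 0.37. The one of replicate 2 was at 4:89749-91359, with 0.53. The first of these had the median score of the chromosome in its list, and the other 5 lay below that median.

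Chromosome 4 clusters were also uneven along the sequence. The first 400 kb held 3 combined clusters, of which 0 were found in both replicates, with 0 clusters of replicate 1 and 1 of replicate 2. From 400 to 800 kb there were 19 combined clusters, 4 of them found in both replicates, and 12 lay beyond 800 kb, again with 4 found in both. The longest gap between neighbouring combined clusters on the chromosome was 246.3 kb. These windows were chosen after the positions were seen.

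The Het scaffolds had 5 clusters found in both replicates, on 3 of the 6 scaffolds. The strongest was at 3RHet:2348267-2350829, scoring 1.37 in the combined list, 1.61 in replicate 1 and 1.13 in replicate 2 (mean 1.37 ± 0.34, SD, n = 2). It ranked 153 in the combined list, far above the next of the 5, at 2LHet:123201-126034, which ranked 1616 with 0.59 in the combined list beside 0.60 and 0.59 in the replicates. The other 3 had ordinary or low scores. They were at 3RHet:2473227-2475273, with 0.45 in the combined list beside 0.49 and 0.56 in the replicates, and at the neighbouring 3LHet:701049-703387 and 3LHet:708050-710381, with combined scores of 0.38 and 0.36.

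Those neighbours on 3LHet, 4662 bases apart, were found as separate clusters in all 3 lists. Replicate scores were 0.41 and 0.58 at the first and 0.47 and 0.48 at the second. Over the 5 Het pairs, the boundaries differed between the replicates by a median of 62 bases at the start and 132 bases at the end. The same medians were 121 and 129 bases on the large arms, 90.5 and 136.5 on U, and 91.5 and 204.5 on chromosome 4. The match at the ends was thus no closer than on the arms.

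Over the Het scaffolds as a whole, with 11 clusters in each replicate, median width and median score were lower than on the arms in both replicate lists. The median width was 1721 ± 12.7 bases and the median score 0.53 ± 0.045, against 1954 ± 21.2 bases and 0.61 ± 0.020 on the large arms (SD, n = 2). An SD between 2 medians does not measure the uncertainty of a median over 11 clusters. In replicate 1 their widths ran from 1373 to 2448 bases. The difference in score was -0.098 in replicate 1 and -0.064 in replicate 2, or -0.081 ± 0.024. In the combined list the score turned the other way, with a median of 0.46 over the 77 clusters of the Het scaffolds, against 0.43 on the large arms.

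The Het scaffolds also had the lowest share of matched clusters between the replicates. Of the 11 clusters in each replicate list, 5 overlapped a cluster of the other, or 45.5% (exact 95% Clopper-Pearson interval 16.7 to 76.6%), against a background over the whole list of 69.6% in replicate 1 and 69.3% in replicate 2. XHet showed the mismatch in full: the cluster of replicate 1 lay at XHet:79966-81627, and those of replicate 2 at XHet:84959-86338 and XHet:118953-120604, with no base in common. The highest score of replicate 2 on the Het scaffolds, 1.35 at 3RHet:1790475-1791921, also had no partner in replicate 1. The interval includes the background share, so a lower match is not shown at this number of clusters.

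U was different in score. Its clusters had a median score of 1.71 in replicate 1 and 1.80 in replicate 2, against 0.60 and 0.63 on the large arms, a difference of 1.12 and 1.17, or 1.14 ± 0.041 on the log2 scale (SD, n = 2). Scores of 1 or more were reached by 33 of 38 clusters of U in replicate 1, or 86.8%, against a background of 9.48% over the whole list, and by 32 of 33 in replicate 2, or 97.0%, against 8.03%. On U, 26 of 38 clusters of replicate 1 scored 1.5 or more, or 68.4% (95% interval 51.3 to 82.5%), and in replicate 2 this held for 25 of 33, or 75.8% (57.7 to 88.9%). The background over each whole list was 2.64% in replicate 1 and 1.44% in replicate 2. Chromosome 4 had no cluster at this score in either replicate, and the Het scaffolds had 1 in replicate 1 and 0 in replicate 2.

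Combined scores of the 28 clusters of U held by both replicates ran between 0.79 and 2.87, with a median of 1.73, against a median of 0.56 for the 3166 such clusters on the large arms. The highest was at U:8776767-8780004, with a combined score of 2.87, 2.97 in replicate 1 and 2.77 in replicate 2 (mean 2.87 ± 0.15, SD, n = 2). Next came U:8412807-8415447, with 2.74 in the combined list beside 2.91 and 2.77 in the replicates. At U:9526748-9529562 the combined score was 2.72, with 2.83 and 2.59 in the replicates. These 3 sites were matched to 0.24 or less between the replicates.

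The next sites of U were at U:7843144-7846406, with a combined score of 2.54 (2.43 and 2.60 in the replicates), and U:9205210-9207965, with 2.26 (2.70 and 2.46). The replicates were further apart at U:7774559-7777673, with 2.20 in the combined list beside 2.64 and 1.87 in the replicates. Among the 10 highest they were closest at U:1987276-2015441, with 2.13 in the combined list and 2.12 and 2.15 in the replicates. The last of the 10 highest were U:9501338-9503888, with 2.06 (1.82 and 2.31), U:10035163-10037355, with 2.01 (1.68 and 2.25), and U:9927352-9929571, with 1.99 (2.61 and 1.40). The last pair differed by 1.21, the largest difference among the 28 sites of U.

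Across the 28 pairs of U, the replicate scores differed by 0.012 on average with an SD of 0.42, and each replicate was higher in 14 pairs. Among pairs with a combined score of 1 or more, the SD of the difference was 0.39 for 26 pairs of U and 0.28 for 264 pairs of the large arms. The strong pairs of the large arms leaned to replicate 1, which was higher in 197 of the 264, while on U it was higher in 14 of the 26; this contrast was not tested. Pearson's r was 0.69 and Spearman's rho 0.64 over the 28 pairs of U, given as a description, since all pairs come from the same pair of libraries. On chromosome 4 the difference was 0.030 with an SD of 0.13 over 8 pairs.

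**Figure D2:**
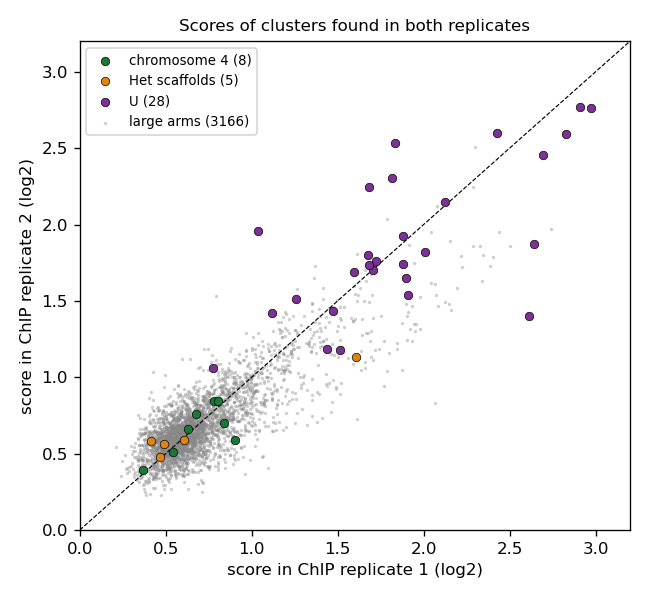
Score in ChIP replicate 1 (horizontal axis) and in ChIP replicate 2 (vertical axis), both on the log2 scale, of clusters found in both replicates, 1 point per combined cluster; the dashed line marks equal scores. Sites of chromosome 4 and 4 of the 5 of the Het scaffolds lie in the body of the large arms, while U extends to 2.97 and 2.77.

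U also held some very wide sites, although 8 of the 10 widest clusters of the combined list lay on the large arms and 2 on U. U:1987276-2015441 spanned 28166 bases as a combined cluster, and the replicates gave 27682 and 27618 bases, with starts 87 bases and ends 23 bases apart. U:3467800-3487955 measured 20156 bases, with 19987 and 20051 bases in the replicates. Only 1 cluster of the combined list had a width between theirs, and none was wider than U:1987276-2015441. The next widest on U that both replicates held were U:2682367-2691090 with 8724 bases, U:2671815-2679722 with 7908 bases and U:2179758-2185494 with 5737 bases, which 2 clusters of replicate 1 covered in part and 1 of replicate 2.

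Width and score did not go together among these 28 sites, with a rho of 0.091 between combined width and score, against 0.30 over the clusters of the large arms found in both replicates. This was not particular to U among strong sites. With a combined score of 1 or more, rho was 0.060 over 26 sites of U and 0.12 over 264 of the large arms. All 5 of the widest lay between 1900 and 3500 kb of U, where 8 sites found in both replicates had a median width of 6822.5 bases and a median score of 1.67. Beyond 8000 kb, 13 such sites had a median width of 2546 bases and a median score of 1.99. Between 3500 and 6000 kb, 17 combined clusters included 0 that were found in both replicates. These windows were chosen after the positions were seen, and the order of scaffolds in U is that of the assembly.

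Over all its clusters, the median width on U was 2276.5 bases for replicate 1 and 2268 bases for replicate 2, or 2272 ± 6.01, against 1954 ± 21.2 bases on the large arms (SD, n = 2). The small SD on U is between 2 medians and does not measure the uncertainty of either. In the combined list the order turned round, with a median of 1283 bases on U against 1742 bases on the large arms. The combined median was also lower on chromosome 4, with 1471 bases, and on the Het scaffolds, with 1303 bases. The combined list reaches down to 1001 bases, while neither replicate list holds a cluster under 1301 bases.

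Most combined clusters on these sequences had no counterpart in a replicate list. On chromosome 4, 8 of 34 were found in both replicates, or 23.5% (95% interval 10.7 to 41.2%), on U 28 of 109, or 25.7% (17.8 to 34.9%), and on the Het scaffolds 5 of 77, or 6.49% (2.14 to 14.5%). The background over the whole combined list was 27.7%. The intervals of chromosome 4 and U include it, and that of the Het scaffolds lies below it. Among combined clusters with scores above the list median, 7 of 9 on chromosome 4 were supported, or 77.8%, 28 of 101 on U, or 27.7%, and 3 of 48 on the Het scaffolds, or 6.25%, against a background of 45.5% under the same selection. Among those at least 1301 bases wide, an alternative chosen after seeing the data, the shares were 8 of 21 on chromosome 4, or 38.1%, 28 of 53 on U, or 52.8%, and 5 of 40 on the Het scaffolds, or 12.5%, against 38.9%. Clusters found in neither replicate made up 61.8% of chromosome 4 (43.6 to 77.8%), 64.2% of U (54.5 to 73.2%) and 79.2% of the Het scaffolds (68.5 to 87.6%), against a background of 49.5%. The intervals account for the number of clusters alone and take each cluster as a separate observation.

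Support was spread unevenly over the Het scaffolds. None of the combined clusters on 2RHet, XHet and YHet was found in both replicates. On 2RHet 23 of 24 were found in neither replicate, and on YHet all 3, against 61 of 77 over the pooled scaffolds. On 3RHet 2 of 23 were found in both replicates, on 3LHet 2 of 19 and on 2LHet 1 of 3. A further 6 on 3RHet were found in 1 of the replicates, the highest such count of any Het scaffold. On XHet 3 of 5 were found in 1 of the replicates.

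**Figure D3:**
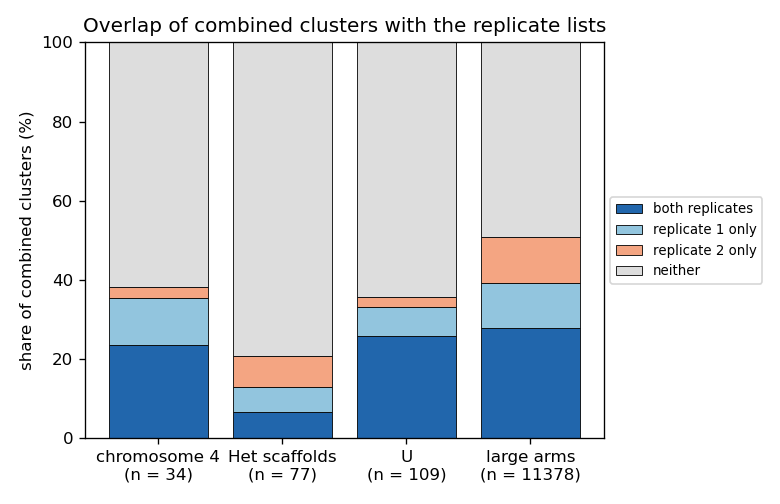
Share of combined clusters (vertical axis, %) that overlapped clusters of both replicates, of 1 replicate only or of neither, on chromosome 4, the Het scaffolds, U and the large arms. Found in both were 23.5%, 6.49%, 25.7% and 27.8% from left to right.

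Seen from the replicate lists, most clusters of chromosome 4 and U had a partner. On chromosome 4, 8 of 13 clusters of replicate 1 and 8 of 9 of replicate 2 overlapped the other replicate, or 61.5% (31.6 to 86.1%) and 88.9% (51.8 to 99.7%). On U the shares were 29 of 38 and 28 of 33, or 76.3% (59.8 to 88.6%) and 84.8% (68.1 to 94.9%). Each of these intervals includes the background of 69.6% or 69.3%.

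The combined list held narrow clusters with very high scores on U and 2RHet. On U, 56 of 109 combined clusters were narrower than 1301 bases, or 51.4% (41.6 to 61.1%), on the Het scaffolds 37 of 77, or 48.1% (36.5 to 59.7%), and on chromosome 4 13 of 34, or 38.2% (22.2 to 56.4%), against a background of 29.0%. At the minimum width of 1001 bases, 16 clusters of U had a median score of 2.25, while 230 of the large arms had 0.47. All 16 were found in neither replicate, but at this width so were 242 of 250 over the whole combined list and 222 of 230 on the large arms.

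Scores of 2 or more were reached by 28 of 109 combined clusters on U, or 25.7% (17.8 to 34.9%), and 4 of 77 on the Het scaffolds, or 5.19% (1.43 to 12.8%), against a background of 0.397%. Chromosome 4 had 0 of 34, which allows a share of up to 10.3% by the same interval. Of the 28 on U, both replicates held 9 and neither held 18, and 16 of those 18 were narrower than 1301 bases. Over the whole combined list, neither replicate held 28 of the 46 at this score, and 25 of those 28 were narrower than 1301 bases. On the large arms, neither held 6 of 14, and all 6 were narrower than 1301 bases. All 4 on the Het scaffolds lay on 2RHet and were found in neither replicate. Of the 10 highest scores in the combined list, 7 were on U, 2 on 2RHet and 1 on the large arms, and 1 of the 10 was found in both replicates.

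The top score of the combined list, 3.71 at U:4226699-4227703, belonged to a cluster of 1005 bases that neither replicate held. Scores of exactly the same value recurred among such clusters. The value 2.90 occurred 4 times in the combined list, 3 times on U and once on 2RHet, in clusters of at most 1048 bases. The value 2.48 occurred 5 times, 4 times on U and once on 2RHet, in clusters of at most 1095 bases. The value 3.07 occurred at U:901362-902362 and at U:6257173-6258173. All of these were found in neither replicate. Shared values as such were common, with a background of 47.0% of the combined list, and 35.8% of the clusters of U (26.8 to 45.5%) had one. These sites were chosen after their values were seen.

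**Figure D4:**
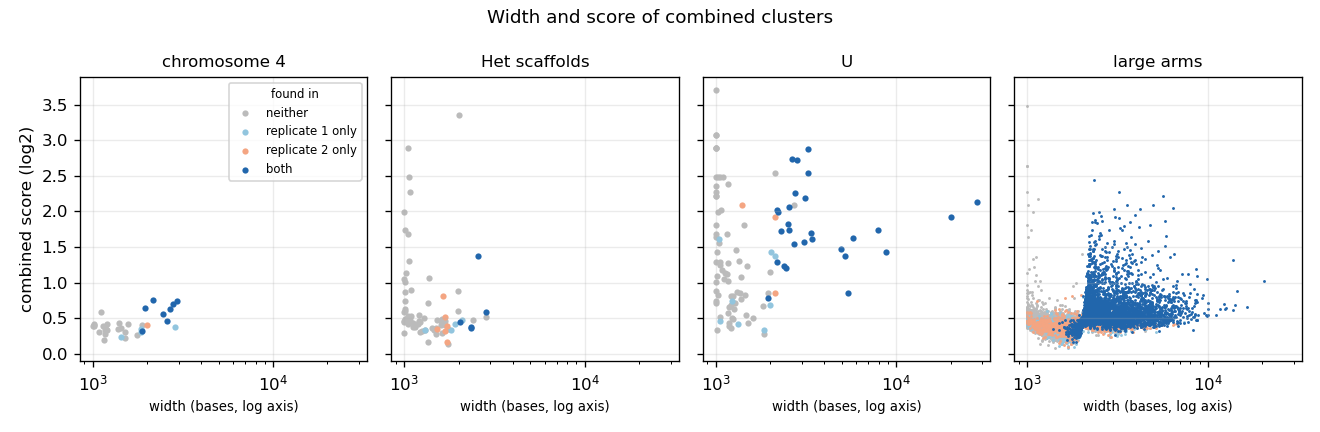
Width in bases (horizontal log axis) and combined score on the log2 scale (vertical axis) of the combined clusters on chromosome 4, the Het scaffolds, U and the large arms, coloured by the replicate lists in which they were found. On U, 16 of the 18 clusters that scored 2 or more and were found in neither replicate were narrower than 1301 bases, while the 28 found in both measured 1950 to 28166 bases.

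On U, the combined median score and width were 1.73 and 2953 bases for clusters in both replicates, and 1.14 and 1140 bases for clusters in neither. Support did not go with score at the top of U, where neither replicate held 18 of the 28 clusters scoring 2 or more. No replicate cluster is under 1301 bases, so width and support are linked in every class by the making of the lists. On chromosome 4 the same medians were 0.64 and 2521.5 bases in both replicates, and 0.36 and 1187 bases in neither. On the Het scaffolds the scores did not follow support, with a median of 0.45 in both and 0.47 in neither, although the widths did, with 2339 and 1206 bases. On the large arms the medians were 0.56 and 2690.5 bases in both, and 0.42 and 1267 bases in neither.

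At sites found in both replicates, the combined score lay below both replicate scores in 6 of 8 cases on chromosome 4 and in 3 of 5 on the Het scaffolds. On U it lay below both in 10 of 28 and between them in 17. On the large arms it lay below both in 63.1% of cases, but in 36.4% where the combined score was 1 or more, close to the share on U.

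Clusters had near neighbours less often on all of these sequences than over the whole list, and in the combined list chromosome 4 had the highest share of them. In the combined list, 23 of 34 clusters of chromosome 4 had another within 10 kb, or 67.6% (49.5 to 82.6%), against 30 of 77 on the Het scaffolds, or 39.0% (28.0 to 50.8%), and 28 of 109 on U, or 25.7% (17.8 to 34.9%). The background was 90.5%. The median distance to the next cluster was 19.0 kb on chromosome 4, 76.2 kb on the Het scaffolds and 55.5 kb on U, against 3.23 kb on the large arms. Closer spacing goes with higher density by itself, and no correction for density was made. In the replicate lists the classes were closer: on chromosome 4, 5 of 13 clusters in replicate 1 and 2 of 9 in replicate 2 had such a neighbour, or 38.5% and 22.2%. On U the shares were 26.3% and 21.2%, and on the Het scaffolds 18.2% in each, against a background of 68.4% and 71.5%.

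Joined at this distance, the clusters of chromosome 4 formed 9 groups and 11 single clusters. The largest group, 4:506647-529681, held 4 clusters in 23.0 kb, of which 2 were found in both replicates, and replicate 1 had 3 clusters there. At 4:567504-590184 there were 3 clusters around the shared site of score 0.73. The groups at 4:435481-447604 and 4:676916-693001 also held 3 clusters each, the first with 0 and the second with 1 found in both replicates.

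U had 11 groups and 81 single clusters. The largest, U:2150712-2185494, held 6 clusters in 34.8 kb that covered 50.0% of it, with scores from 1.23 to 2.54, and 3 of the 6 were found in both replicates. At U:2662420-2691090 there were 3 clusters, all found in both replicates, which covered 76.1% of 28.7 kb. The replicates gave the same group with 75.7% and 75.3% covered. This was the only group of 3 or more on any of these sequences in which every cluster was found in both replicates. On the Het scaffolds there were 14 groups, of which 2 held 3 clusters, both on 3LHet and neither with a cluster found in both replicates.

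**Figure D5:**
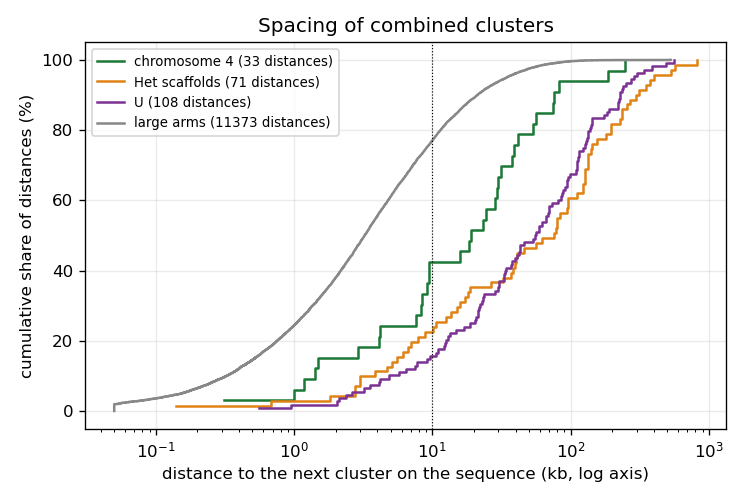
Cumulative share of distances (vertical axis, %) from each combined cluster to the next on its sequence (horizontal log axis, kb; distances under 0.05 kb are drawn at 0.05) on chromosome 4, the Het scaffolds, U and the large arms. The dotted line marks 10 kb, and the medians are 19.0, 76.2, 55.5 and 3.23 kb.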

How the data were processed

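Chromatin immunoprecipitation with sequencing was done on 2 JHDM1 ChIP samples and 2 inputs, and no list of the inputs was used here. The submitters' processing notes name Bowtie 0.12.7 as the aligner. Per the file headers, each deposited list gives significantly enriched regions in FlyBase release 5 coordinates; the sources used here do not give the region caller, its threshold or how the replicates were combined. The authors' score is treated as log2, a scale the deposited files do not state: within a list, many scores differ by exactly the log2 of small whole-number ratios and none by natural or decimal logs of them. What the score is relative to is not stated. Read depth is unknown, so intervals cover counts of clusters only.

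Clusters matched if they shared 1 base. Density was tested with exact binomial tests (SciPy 1.17.1), called at an adjusted p below 0.05 in both replicates, and checked on simulated data. The simulated clusters were placed independently of each other, so that check does not cover the dependence between neighbouring clusters. Shares have exact 95% Clopper-Pearson intervals. Named were every replicate cluster of chromosome 4, every Het cluster found in both replicates, and the 10 highest-scoring and 5 widest such clusters of U; any others were chosen after their values were seen. Members and lists were chosen with earlier results of these data known. Alternatives changed the overlap, score minimum, joining, list and distance, and left out each replicate.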

Additional observations from a re-analysis of the deposited data

How the results depend on the processing

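The density ratios to the large arms stayed below 1 and past the threshold under all 18 alternatives, but their size changed: over these it ran between 0.167 and 0.263 on chromosome 4, 0.0823 and 0.172 on U and 0.0191 and 0.0868 on the Het scaffolds. Over single replicates the ranges were 0.167 to 0.243, 0.0823 to 0.0956 and 0.0297 to 0.0300. The last range is narrow because both replicates held 11 clusters on the Het scaffolds. Of the other results, 29 values moved by more than the spread or interval. For median widths and scores that spread was the SD of 2 replicate medians, only 6.01 bases for width on U, so small shifts could count as moved. Some of these moves were built into the alternative: a score minimum raises median scores, and a shorter or longer neighbour distance lowers or raises grouping. A score minimum also leaves fewer clusters that can be neighbours. The cause of the other moves was not tested. With scores above the list median, support in both replicates was 77.8% on chromosome 4, median widths were 2327.5 bases on chromosome 4, 1764 on the Het scaffolds and 2317.8 on U, median scores were 0.78 on chromosome 4 and 0.89 on the Het scaffolds, and grouping was 22.2% on chromosome 4 and 27.1% on the Het scaffolds. In the combined list, median widths were 1471, 1303 and 1283 bases on chromosome 4, the Het scaffolds and U. Median scores there were 0.39, 0.46 and 1.37, against 0.43 on the large arms. This turned the score difference of the Het scaffolds from the arms to the other side of 0. On chromosome 4 that difference already had no common sign, with -0.0034 in replicate 1 and 0.031 in replicate 2. Over clusters shared between replicates, median widths were 2195.8, 2091.5 and 2506.2 bases in the same order, and the median score on chromosome 4 was 0.71. Joining clusters closer than 500 bases gave 2304.5 bases on U. Grouping within 5000 bases was 47.1%, 23.4% and 17.4%, and within 20000 bases 55.8% on the Het scaffolds and 40.4% on U. In the replicate lists it was 38.5% and 22.2% on chromosome 4 and 18.2% in each on the Het scaffolds. With only combined clusters at least 1301 bases wide, an alternative chosen after seeing the data, support on U was 52.8%. No paired analysis was possible because no list of the inputs was used here. Read depth is unknown, and few clusters limit each value on chromosome 4 and the Het scaffolds.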

Other observations

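A few clusters of a replicate list had no overlap with the combined list. In replicate 1 these were 4:655458-656858, with a score of 0.37, 2RHet:1623996-1625490, with 0.50, and U:5854241-5855633, with 2.71. In replicate 2 they were U:127962-129290 and U:8945387-8946713. The highest score of replicate 2, 3.62 at U:7973490-7974826, had no partner in replicate 1. These sites were chosen after their values were seen.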
